A study of Mus musculus with 16 samples.

Results

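Heat shock chaperones of the cytosol and of the mitochondrion were followed in leukemic and non-leukemic bone marrow cells by 10 genes, chosen by symbol: Hspa8, Hsp90aa1, Hsp90ab1, Hspa1a, Hspa1b, Hsph1, Dnajb1, Hspd1, Hspe1 and Hsf1. They are 10 of the 16612 genes listed in at least 1 of 2 tables of normalized counts, 9 of the 15080 genes of the tumor table (which does not list Hspa1a) and 10 of the 13344 genes of the stroma table. RNA was sequenced from a transplanted B-cell acute lymphoblastic leukemia (B-ALL) that carries BCR-ABL on an Arf-/- background and expresses mCherry, and from the other marrow cells of the same kind of host. Hosts were C57BL/6J mice, either wild-type (WT) or IL6KO (IL-6 KO), bought at 6 to 8 weeks of age. Each received 500000 leukemic cells by tail vein, and marrow was taken 8 days later without drug treatment. Tumor was the mCherry+ sort and stroma the mCherry- sort of live single cells after red cell lysis, with 4 libraries for each host genotype and compartment, 16 in all. The labels set the groups of a compartment apart by host genotype alone and give no sex, litter or batch. All hosts carried leukemia, and the leukemic cells themselves were of 1 genotype in both kinds of host. Nothing in the labels says beyond the replicate number that the libraries came from separate mice, so p-values measure the spread between libraries.

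Chaperones bind unfolded stretches of other proteins and release them in cycles driven by ATP. In the cytosol, HSP70 proteins receive their clients from J-domain partners, exchange factors reset the cycle, and HSP90 takes over many kinases and receptors, among them BCR-ABL, for which HSP90 is a well-known chaperone. In the mitochondrial matrix, HSP60 (Hspd1) and its lid HSP10 (Hspe1) form a folding chamber. HSF1 is the transcription factor that raises the inducible members (Hspa1a, Hspa1b, Hsph1, Dnajb1 and Hsp90aa1 above all) when unfolded protein accumulates, while Hspa8 and Hsp90ab1 are made at a high level in most cells.

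The libraries differed in ways that bear on these genes. Deposited values are normalized counts, estimated counts divided by a size factor, so the read depth of each library is unknown. The sums of all normalized counts were between 38817792 and 44552085 in WT tumor, 47267047 and 55592959 in IL-6 KO tumor, 8805689 and 17470735 in stroma of WT hosts, and 33973016 and 44191950 in stroma of IL-6 KO hosts. Rn7s1, the RNA of the signal recognition particle, held 3.40% to 6.24% of the sum in tumor and 10.9% to 79.0% in stroma. Replicates of a group ranked genes alike in tumor (Spearman's rho across genes from 0.975 to 0.990) and less so in stroma (0.745 to 0.899), and no pair of libraries was identical. B lineage markers, all 10 listed, summed to 129530 to 145476 in tumor and to 495 to 1561 in stroma, where 9 listed erythroid markers summed to 45339 to 199078 and 5 listed mesenchymal and endothelial markers to 172 to 1673. Stroma therefore names the mCherry- sort and not connective tissue. Cxcl12, Lepr and Cdh5 were not listed in stroma but were in tumor, so being listed does not settle which cells were present. Il6 was not analysed here, so the host genotype was not checked by its transcript.

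Hspa1a and Hspa1b, the inducible HSP70 genes, lie side by side on the minus strand of chromosome 17 (GRCm38, chr17:34969190-34972156 and chr17:34956436-34959238), each as a single exon. Their coding sequences of 1923 and 1926 bases aligned with 8 substitutions and 3 gap bases, an identity of 99.6%, and the longest stretch without a difference was 638 bases, while reads were 75 bases long. Of the stretches of 75 coding bases without a gap, the first with the most substitutions (positions 1342 to 1416) is shown, to give the scale of the difference a read can meet. It holds 2 of the 8 substitutions, given in capitals, and was read from the GENCODE transcripts at chr17:34970510-34970584 and chr17:34957592-34957666.
Hspa1a: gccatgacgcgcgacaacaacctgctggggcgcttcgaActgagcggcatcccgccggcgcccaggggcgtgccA
Hspa1b: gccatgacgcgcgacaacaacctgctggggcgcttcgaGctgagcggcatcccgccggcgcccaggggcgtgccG
Of all windows of 75 bases in the longest coding transcript, 54.2% of those of Hspa1a and 55.8% of those of Hspa1b also occur in another gene. The same share was 68.0% for Hspa8, 53.1% for Hsp90aa1, 33.7% for Hspd1, 23.7% for Hspe1, 0.736% for Hsp90ab1 and 0 for Hsph1, Dnajb1 and Hsf1.

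Hspd1 and Hspe1 lie head to head on chromosome 1 (chr1:55077835-55088243, minus strand, and chr1:55088132-55091307, plus strand) and share a promoter. That region holds a run of 18 bases of heat shock units, the GAA and TTC blocks to which HSF1 binds, shown in capitals on the strand of Hspe1 and then on the strand of Hspd1 (RefSeq, GRCm38.p6, chr1:55088053-55088082, which touches an exon of 1 Hspd1 transcript).
Hspe1: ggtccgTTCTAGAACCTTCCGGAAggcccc
Hspd1: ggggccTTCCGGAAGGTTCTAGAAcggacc
Promoters of 6 of the 10 genes were matched in the RefSeq table, and the 250 bases before each start were searched on both strands. An element of 3 units (GAANNTTCNNGAA, which is TTCNNGAANNTTC on the other strand) was in the promoter of Hspe1, in 1 of the 2 promoters listed for Hspd1 (not the one directly before the gene start given here) and in 153 of 32851 promoters (0.466%). The shorter form of 2 units (GAANNTTC or TTCNNGAA, which the longer ones contain) was in 12.8% of promoters, among them those of Hspa1a, Hspa1b (104 bases before the start in each) and Hsph1. The 250 bases before Hspa1a and Hspa1b differed at 3 positions. The letters were not found in the window of Dnajb1.

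**Figure D1:**
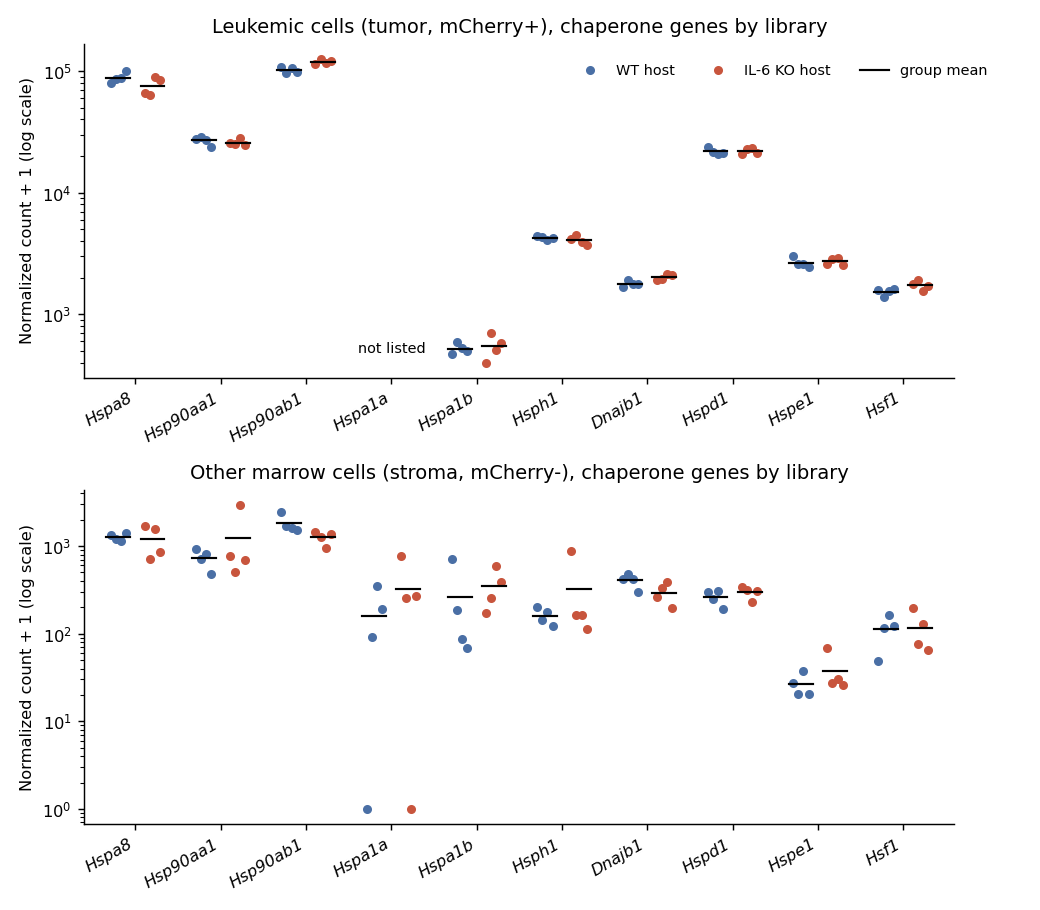
Normalized count plus 1 (log axis) of the 10 genes in every library, tumor above and stroma below, with WT hosts in blue, IL-6 KO hosts in red and a black line at each group mean. Tumor libraries of a gene lie close together and stroma libraries spread widely, with Hspa1a at 0 in 1 WT and 1 IL-6 KO stroma library.

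Within tumor, the constitutive cytosolic genes stood highest. Per kb of the longest coding transcript, normalized counts over the 8 tumor libraries averaged 43889 ± 4037 (SD, n = 8) for Hsp90ab1 and 34228 ± 5178 (SD, n = 8) for Hspa8, and Hsp90ab1 was above Hspa8 in 7 of the 8 libraries, with overlapping ranges. Hspd1 followed at 9065 ± 490 (SD, n = 8), then Hsp90aa1 at 8034 ± 549 (SD, n = 8), Hspe1 at 3483 ± 270 (SD, n = 8) and Hsph1 at 1096 ± 66.0 (SD, n = 8). Hspd1 was above Hsp90aa1 in 8 of 8 libraries although their ranges overlapped. Hsf1 was at 781 ± 78.8, Dnajb1 at 636 ± 52.6 and Hspa1b, the lowest, at 190 ± 32.5 (SD, n = 8 each). Among protein-coding genes of the table ranked per kb, Hsp90ab1 stood between the 99.5th and the 99.6th percentile in each library, and Hspa1b between the 34.6th and the 46.4th.

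The order in stroma began alike and was less firm below. Hsp90ab1 averaged 609 ± 169 and Hspa8 517 ± 141 normalized counts per kb (SD, n = 8 each), followed by Hsp90aa1 at 298 ± 242. Every pair of neighbours in the stroma order had overlapping ranges, although Hsp90aa1 was above Dnajb1 in 8 of 8 libraries, and from Dnajb1 at 116 ± 32.0 to Hspe1 at 40.4 ± 19.9 (SD, n = 8 each) the order changed from library to library. The tables were normalized separately, so a level in tumor is not set against one in stroma.

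Ratios within a library are free of that scale. Hspa1a and Hspa1b together came to 15.0% to 64.5% of Hspa8 per kb in the 8 stroma libraries (median 38.5%). In the 8 tumor libraries, where Hspa1b alone is listed, the ratio was 0.424% to 0.954% (median 0.517%). Dnajb1, the J-domain partner of inducible HSP70, was at 12.4% to 37.8% of Hspa8 in stroma and at 1.41% to 2.45% in tumor. Hsph1, the HSP110 exchange factor, was at 5.44% to 32.5% in stroma and at 2.68% to 4.45% in tumor. None of these 3 ratios overlapped between the compartments, and the difference was described and not tested. Counting copies of Hspa8 together with Hspa8 lowered the stroma ratios to 13.2% to 40.9% for Hspa1a and Hspa1b, 8.17% to 23.4% for Dnajb1 and 4.57% to 21.5% for Hsph1, the last still above the 4.43% that was highest in tumor on the same count. Most counts so added in stroma were of Gm8326, which matches Hspa8 over 189 bases only. Hsp90aa1 was at 24.5% to 235% of Hsp90ab1 in stroma (median 35.5%) and at 15.4% to 22.6% in tumor (median 18.6%). This ratio did not overlap between the compartments either, and the difference was not tested. Other ratios overlapped: Hspe1 was at 24.3% to 60.8% of Hspd1 in stroma and at 36.0% to 39.9% in tumor. Stroma libraries also differ from tumor libraries in cell types and in the share of Rn7s1, and the part of these in the ratios was not tested.

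**Figure D2:**
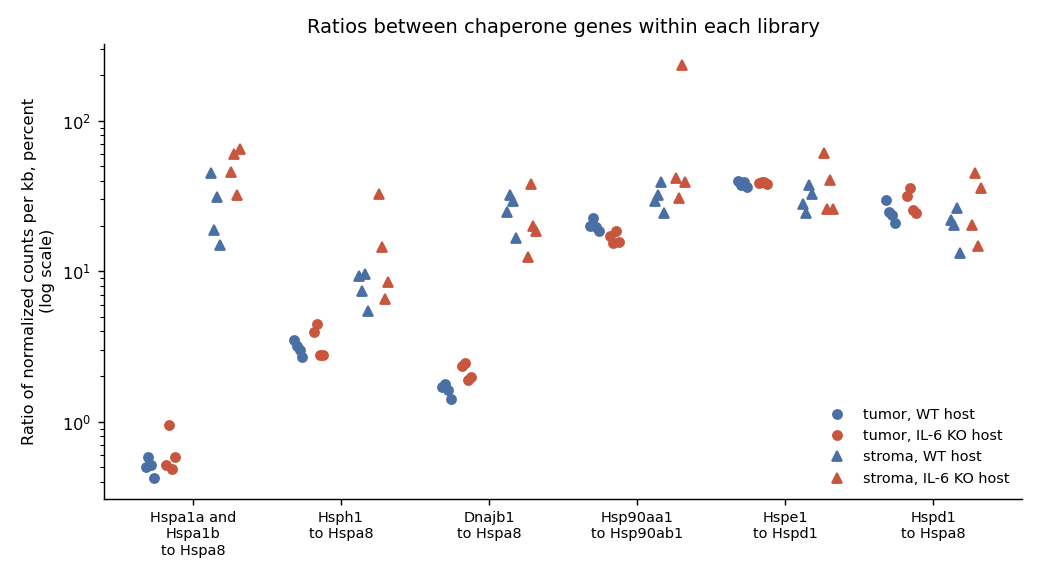
Ratio of normalized counts per kb between pairs of chaperone genes within each library, in percent on a log axis, with circles for tumor, triangles for stroma, blue for WT hosts and red for IL-6 KO hosts (tumor lists Hspa1b and not Hspa1a). The ratios of Hspa1a and Hspa1b, Hsph1 and Dnajb1 to Hspa8 are higher in every stroma library than in any tumor library. So is the ratio of Hsp90aa1 to Hsp90ab1, while Hspe1 to Hspd1 and Hspd1 to Hspa8 overlap.

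To learn whether the absence of IL-6 in the host went with a change of chaperone transcripts in leukemic cells, each gene was compared between 4 WT and 4 IL-6 KO tumor libraries. Hsp90ab1, the constitutive cytosolic HSP90, was the only one of the 9 tested to pass (limma, log2(normalized count + 1), Benjamini-Hochberg adjusted p under 0.05). This is 11.1% of the members, set beside 19.8% of all 14493 genes tested, of which 10.6% rose and 9.16% fell in IL-6 KO hosts, so the chaperones passed no more often than genes at large. The median log2 fold change was 0.04 over the 9 genes and -0.01 over all genes. Scaled to the sum of all normalized counts, which moved the median of all genes to -0.28, 25.7% of all genes passed, and of the 9 Hspa8 (-0.50), Hsp90aa1 (-0.33), Hsph1 (-0.35) and Hspd1 (-0.26) did so as lower in IL-6 KO tumor, and Hsp90ab1 did not pass. Fewer cells of a type and less RNA per cell cannot be told apart in such bulk samples.

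Normalized counts of Hsp90ab1 were 107614, 97123, 105483 and 98582 in WT tumor and 113410, 125146, 116306 and 121147 in IL-6 KO tumor. All IL-6 KO libraries were above all WT libraries, as they were, in 1 direction or the other, for 2 of the 9 chaperones (22.2%) and for 25.6% of all genes. Means were 102201 ± 5130 and 119002 ± 5193 (SD, n = 4 each), a log2 fold change of 0.22 (standard error 0.06, adjusted p = 0.0334, limma). Under quantile normalization the log2 fold change was 0.03 (adjusted p = 0.768), and with a correction of each library for GC content and transcript length it was 0.20 (adjusted p = 0.0641). As a share of each library's sum, Hsp90ab1 overlapped between the genotypes, at 0.230% to 0.272% in WT and 0.225% to 0.253% in IL-6 KO tumor. Scaled to that sum its log2 fold change was -0.054 (limma adjusted p = 0.646). The adjusted p from limma was 0.0860, 0.0604 and 0.0869 without WT library 2, 3 or 4 and 0.0517, 0.0562 and 0.0898 without IL-6 KO library 1, 3 or 4. Of 10 mature neutrophil markers, 8 were higher in IL-6 KO tumor, with sums from 4658 to 5229 in WT and of 16927, 17611, 7153 and 15491 in IL-6 KO libraries. The sum of 10 B lineage markers was also higher, at 129530 to 133710 against 141364 to 145476, but marker by marker 1 passed as higher and 2 as lower. The smallest neutrophil sum among the IL-6 KO libraries, 7153 in library 3, was still above every WT library. The part of these markers in the difference of Hsp90ab1 was not tested.

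Hsp90aa1, the inducible HSP90, did not go with its partner. Its normalized counts were 27805, 28616, 27180 and 23881 in WT tumor and 25487, 25064, 28186 and 24647 in IL-6 KO tumor, which overlap. The log2 fold change was -0.05 (95% interval -0.22 to 0.11, adjusted p = 0.633, limma). The ratio of Hsp90aa1 to Hsp90ab1 per kb averaged 20.2% ± 1.71 in WT and 16.7% ± 1.51 in IL-6 KO tumor (SD, n = 4 each), and its ranges met at 18.6%.

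Hspa8, the constitutive HSP70, varied most among the abundant chaperones of tumor. Its normalized counts were 79090, 85838, 87076 and 100498 in WT and 65845, 63010, 89473 and 84698 in IL-6 KO hosts. IL-6 KO libraries 1 and 2 were below every WT library and the other two lay among them, with a log2 fold change of -0.23 (95% interval -0.50 to 0.05, adjusted p = 0.215, limma). Hspa1b had 467, 587, 526 and 499 normalized counts in WT and 400, 704, 511 and 578 in IL-6 KO tumor, so that IL-6 KO libraries were both the lowest and the highest. Its log2 fold change was 0.05 (95% interval -0.31 to 0.42, adjusted p = 0.850, limma). IL-6 KO library 2, with the most Hspa1b, also had the largest sum of 13 early response genes that handling can induce, 33026 against 22481 to 25693 in the other tumor libraries. This is 1 library, none of the 13 passed between the genotypes, and the part of handling in Hspa1b was not tested.

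Among the partners of HSP70, Dnajb1 did not overlap between the genotypes and did not pass. It had 1689, 1915, 1776 and 1771 normalized counts in WT and 1924, 1933, 2130 and 2106 in IL-6 KO tumor, and its log2 fold change was 0.18 (standard error 0.07, adjusted p = 0.110, limma). The lowest IL-6 KO library was only just above the highest WT library. Hsph1 had 4408, 4319, 4117 and 4273 normalized counts in WT and 4130, 4455, 3924 and 3717 in IL-6 KO tumor, with the genotypes overlapping and a log2 fold change of -0.08 (95% interval -0.24 to 0.08, adjusted p = 0.448, limma).

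The mitochondrial pair moved together, and Hspd1 varied least of the 9 genes across tumor libraries. Hspd1 had 23861, 21642, 20810 and 21266 normalized counts in WT and 20979, 22867, 23257 and 21031 in IL-6 KO tumor. Hspe1 had 3038, 2585, 2586 and 2446 in WT and 2591, 2840, 2924 and 2558 in IL-6 KO tumor. WT library 1 and IL-6 KO libraries 2 and 3 were highest for both genes. Log2 fold changes were 0.01 (95% interval -0.14 to 0.16) for Hspd1 and 0.04 (95% interval -0.15 to 0.23) for Hspe1, with adjusted p (limma) of 0.936 and 0.793. Hspe1 per kb was 38.0% ± 1.69 of Hspd1 in WT and 38.7% ± 0.532 in IL-6 KO tumor (SD, n = 4 each). As the 2 genes overlap at their starts on opposite strands, and the sources used here do not say whether counting used the strand, reads from that overlap could go to either.

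Hsf1, the transcription factor of the heat shock response, had 1578, 1389, 1565 and 1621 normalized counts in WT and 1780, 1933, 1553 and 1723 in IL-6 KO tumor. IL-6 KO library 3 was among the WT libraries and the other 3 were above them, with a log2 fold change of 0.18 (95% interval -0.01 to 0.38, adjusted p = 0.171, limma).

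**Figure D3:**
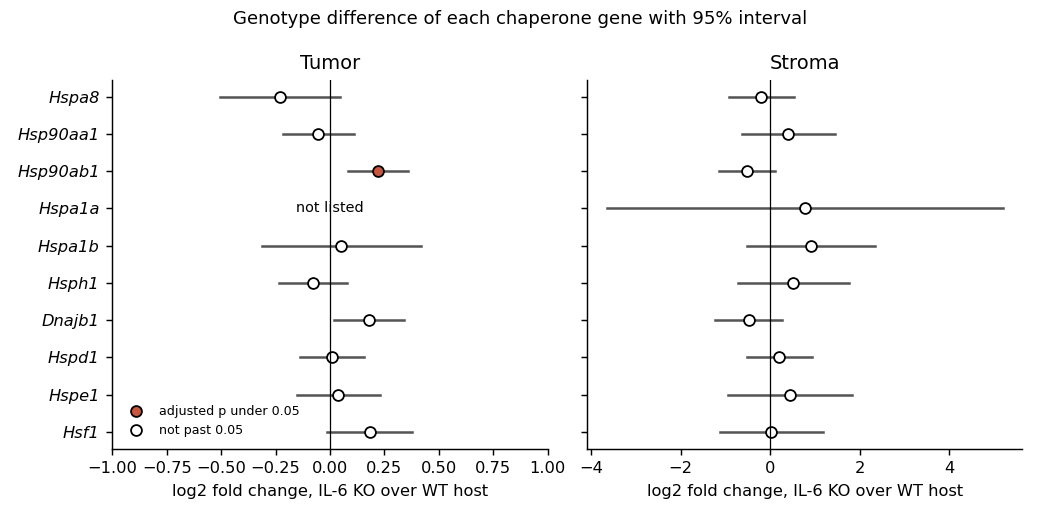
Log2 fold change of each chaperone gene in IL-6 KO over WT hosts with its 95% interval from limma, in tumor (left) and stroma (right, on a wider axis), filled where the adjusted p was under 0.05. Only Hsp90ab1 in tumor, at 0.22, is filled, and the stroma intervals are several times wider, most of all for Hspa1a.

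The same question was asked of the mCherry- cells. None of the 10 genes passed in stroma (limma, 0 at an adjusted p under 0.05 and 0 at an unadjusted p under 0.05), where 1 of 12202 genes tested passed (0.0082%) and 1117 had an unadjusted p under 0.05. The residual SD of a gene (log2) had a median of 0.857 in stroma and of 0.212 in tumor, so that changes which tumor libraries could resolve were not detectable here. Scaled to the sum of all normalized counts, 6 of the 10 passed, all lower in IL-6 KO hosts (Hspa8, Hsp90aa1, Hsp90ab1, Dnajb1, Hspd1 and Hsf1), where the median of all genes was -1.68 and 51.6% of all genes passed, 6284 lower and 8 higher.

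Hsp90ab1 was the only chaperone whose stroma libraries did not overlap between the genotypes, 10.0% of the 10 beside 5.79% of all genes. It had 2422, 1708, 1614 and 1506 normalized counts in WT hosts and 1436, 1273, 949.96 and 1368 in IL-6 KO stroma. The IL-6 KO libraries were the lower ones, opposite to tumor, with means of 1812 ± 415 and 1257 ± 215 (SD, n = 4 each), a log2 fold change of -0.52 (95% interval -1.14 to 0.10, adjusted p = 0.601, limma). In a fit over both compartments the genotype difference of Hsp90ab1 was larger in tumor by 0.74 (log2, standard error 0.26, adjusted p = 0.430, limma). Of the 9 chaperones in that fit 0 passed, beside 1 of 10887 genes (0.00919%) and 954 genes with an unadjusted p under 0.05. Of the 9, Hsp90ab1 and Dnajb1 were the ones under 0.05 before adjustment, and Dnajb1 was at 0.66 (log2, standard error 0.31, adjusted p = 0.568, limma). Scaled to the sum, 4 of the 9 passed, Hsp90ab1 at 2.19, Dnajb1 at 2.10, Hsf1 at 1.58 and Hspd1 at 1.25, beside 4073 of the 10887 genes.

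Single libraries set the means of several genes in IL-6 KO stroma. Hsp90aa1 had 922, 714, 816 and 481 normalized counts in WT and 772, 511, 2911 and 696 in IL-6 KO stroma. IL-6 KO library 3 was far above the other 7, and Hsp90aa1 reached 235% of Hsp90ab1 per kb in it, against 24.5% to 41.3% in the others. The log2 fold change was 0.41 (standard error 0.48, adjusted p = 0.827, limma) and -0.13 without that library. Library 3 also had the smallest neutrophil sum of the IL-6 KO stroma libraries, 7905 against 26867 to 32992, and the largest erythroid sum, 199078.

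Hsph1 had 201, 143, 174 and 122 normalized counts in WT and 867, 162, 162 and 114 in IL-6 KO stroma. Here IL-6 KO library 1 stood apart and the other 3 overlapped with WT. The log2 fold change was 0.52 (standard error 0.57, adjusted p = 0.810, limma) with it and -0.13 without it. The same library was highest for Hspa1a, Hspe1, Hspd1, Hsf1 and Hspa8. Its neutrophil sum of 32992 was the largest of the 8, and that of IL-6 KO library 2, with Hsph1 at 162, was 31910. IL-6 KO library 1 had a mesenchymal and endothelial sum of 1673, against 172 to 596 in the other stroma libraries. The part of these cell types in the values was not tested.

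Counts of the inducible HSP70 genes in stroma were split between the near-identical copies in a different way in each library. Hspa1a was listed at 0, 89.9, 350.0 and 191 in WT and at 764, 252, 0 and 270 in IL-6 KO stroma, and Hspa1b at 711, 183, 85.8 and 68.4 in WT and at 171, 256, 584 and 383 in IL-6 KO stroma. Libraries with Hspa1a at 0 were those with the most Hspa1b, WT library 1 and IL-6 KO library 3. The share given to Hspa1a was 0% in these libraries and between 33.0% and 81.7% in the others. With reads of 75 bases, levels of either gene alone are therefore uncertain, and fitted changes carried wide errors, with a log2 fold change of 0.77 (standard error 2.04) for Hspa1a and 0.91 (standard error 0.66) for Hspa1b.

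The sum of both is less open to this split. It was 711, 273, 436 and 260 in WT and 935, 507, 584 and 653 in IL-6 KO stroma, with means of 420 ± 210 and 670 ± 187 (SD, n = 4 each). WT library 1 was above all IL-6 KO libraries except library 1, and the other WT libraries were below all of them. Fitted as 1 feature, the sum was fitted at a log2 fold change of 0.76 (standard error 0.38, adjusted p = 0.570, limma). The 14 early response genes summed to 4451, 6005, 6369 and 7181 in WT and 8598, 8852, 5606 and 10623 in IL-6 KO stroma, and their part in the sum of Hspa1a and Hspa1b was not tested.

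**Figure D4:**
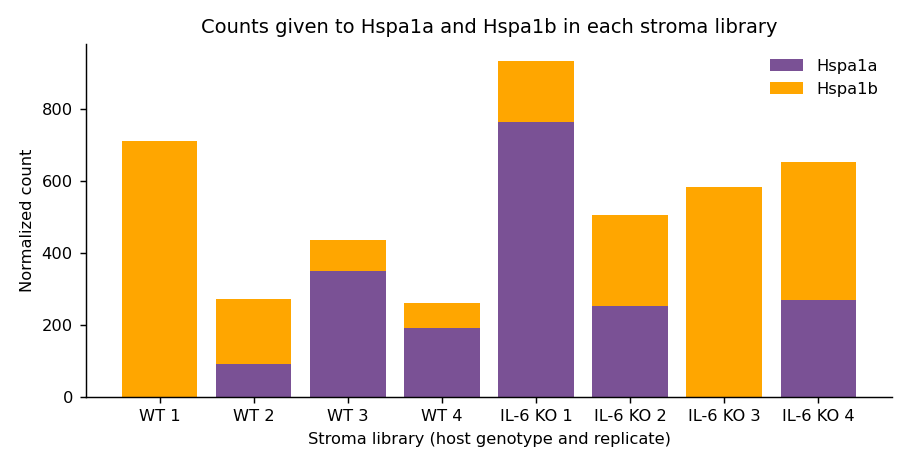
Normalized counts given to Hspa1a (purple) and Hspa1b (orange) in each of the 8 stroma libraries, stacked so that the bar height is their sum. Hspa1a holds none of the sum in WT 1 and IL-6 KO 3 and 81.7% of it in IL-6 KO 1, while the sums range from 260 to 935.

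Hspa8 had 1352, 1212, 1147 and 1417 normalized counts in WT and 1678, 701, 1556 and 844 in IL-6 KO stroma. IL-6 KO libraries were both above and below the WT libraries, and the log2 fold change was -0.20 (95% interval -0.92 to 0.53, adjusted p = 0.891, limma). Copies that match these genes, some only in part, held a larger share of counts in stroma than in tumor. Of the 7 copies of Hspa8 (at least 97% identity over at least 150 bases), Gm8326, Gm8337 and Gm8355 were listed in stroma. They held 12.0% to 40.3% of the counts of Hspa8 and its copies, while all 7 were listed in tumor and held 0.332% to 0.473%. Gm8326, with the most of these stroma counts (121 to 654), matches Hspa8 over 189 bases only, Gm8337 over 357 and Gm8355 over 1941, of 2394. How many of these counts came from Hspa8 is unknown. Gm12346, a copy of Hsp90aa1, held 9.11% to 31.0% in stroma, and the 3 copies held 0.112% to 0.403% in tumor. With the copies added, the stroma log2 fold change of Hspa8 was -0.06 and that of Hsp90aa1 0.40.

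The remaining genes of stroma showed no passing difference. Dnajb1 had 416, 484, 418 and 296 normalized counts in WT and 260, 332, 390 and 194 in IL-6 KO stroma, with overlap and a log2 fold change of -0.48 (95% interval -1.23 to 0.27, adjusted p = 0.689, limma). Hspd1 had 299, 249, 306 and 189 in WT and 344, 317, 230 and 304 in IL-6 KO stroma, and its log2 fold change was 0.21 (95% interval -0.52 to 0.93). WT library 4 was the lowest of the 8 and the genotypes overlapped. Hspe1, a short transcript of 774 bases, had 26.7, 19.3, 36.5 and 19.6 in WT and 66.8, 26.2, 29.5 and 25.3 in IL-6 KO stroma, and its log2 fold change was 0.44 (95% interval -0.94 to 1.82). Hsf1 had 48.4, 114, 163 and 121 in WT and 196, 74.3, 128 and 63.3 in IL-6 KO stroma, and its log2 fold change was 0.03 (95% interval -1.11 to 1.17). Each of these spread over more than a 1.8-fold range among the 8 libraries, Hsf1 over 4.05-fold and Dnajb1 over 2.50-fold.

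The other chaperone genes were examined by role, in 8 lists of 101 genes. In tumor 37 of the 91 tested passed (40.7%, beside 19.8% of all genes), 25 of them higher in IL-6 KO hosts and 12 lower, with a median log2 fold change of 0.12. Without WT library 2 or 3 the count was 21 or 18, and without IL-6 KO library 1 or 4 it was 21 or 17, while the share of all genes that passed fell to 12.5%, 11.9%, 11.1% and 10.8%. After correction for GC content and length 25 were higher and 4 lower, and over all genes 15.1% passed, 1511 higher and 630 lower. Scaled to the sum, 22 passed and all 22 were lower, beside 25.7% of all genes, 3464 lower and 257 higher. Of 8 monocyte and macrophage markers 3 passed as higher in IL-6 KO tumor and 0 as lower. By sign alone 5 were higher and 3 lower. The sums of the 8 did not overlap, at 3228 to 3834 in WT and 4687 to 7938 in IL-6 KO tumor. The neutrophil sums given above did not overlap either, and the part of these markers in the counts of role list genes was not tested. Of the co-chaperones of HSP90, 13 of 20 passed (65%), 9 higher and 4 lower. After correction for GC content and length 7 of 19 did, fewer in proportion than the 8 of 16 mitochondrial genes and 7 of 16 J-domain proteins that passed then. St13, which binds HSP70 and slows its release of clients, had 8249 ± 242 normalized counts in WT and 10538 ± 634 in IL-6 KO tumor (SD, n = 4 each), a log2 fold change of 0.35 (adjusted p = 0.00554, limma). Ahsa1, the activator of the HSP90 ATPase, was higher by 0.39 (adjusted p = 0.00701, limma). Fkbp4, Stub1, Stip1, Fkbp8, Cdc37 and Unc45a were also higher, while Chordc1, Ttc4, Cdc37l1 and Ahsa2 were lower. Of these, Fkbp4, Stub1, Fkbp8, Chordc1, Cdc37l1 and Ahsa2 did not pass after correction for GC content and length, where Unc45a was not tested. Scaled to the sum, none of the co-chaperones of HSP90 passed as higher, while Chordc1, Ttc4, Cdc37l1 and Ahsa2 still passed as lower.

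Other roles were smaller or moved both ways. The share that passed was 28.6% to 37.5% in these lists, beside 19.8% of all genes tested in tumor (10.6% higher and 9.16% lower). In the lists of few genes a single call sets much of the share. Of 6 HSP70 relatives, Hspa4, an HSP110 protein like Hsph1, was lower in IL-6 KO tumor with 19390 ± 930 against 14606 ± 825 normalized counts (SD, n = 4 each, log2 fold change -0.41, adjusted p = 0.00368, limma), and Hspa1l was lower from a level of 30.3 ± 23.7 in WT. Among 16 J-domain proteins 5 were higher, led by Dnajc5 (0.51), Dnajb14 (0.74) and Dnajc8 (0.42), and 0 were lower. Of 7 nucleotide exchange factors, Hspbp1 (0.54) and Bag6 (0.30) were higher. The cytosolic chaperonin TRiC and prefoldin had 5 of 14 genes past the threshold, with Tcp1 (-0.50) and Pfdn4 (-0.32) among 4 that were lower and Cct3 (0.31) higher, but 3 higher and 1 lower after correction for GC content and length. Mitochondrial chaperones and proteases had 6 of 16, with the proteases Lonp1 (0.54) and Afg3l2 (0.39) among 5 that were higher and Dnajc19 (-0.38), a part of the import motor, lower. In the list of small HSPs, Hspb11 (-0.47), a part of intraflagellar transport that was counted here in that list, was the 1 of 3 to pass. Of 9 HSF family genes and HSF1 targets, 3 were higher, among them the ubiquitin gene Ubb (0.41) and the endoplasmic reticulum chaperone Hspa5 (0.34). The numbers in parentheses are log2 fold changes at an adjusted p (limma) under 0.05.

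These calls depended on the scaling to different degrees. Of the 20 genes past the threshold in tumor that were picked by role, 20 passed in the same direction after each library was centred on its median, 16 under quantile normalization (all but Cct3, Hspa1l, Hspa5 and Hspb11) and 11 after correction for GC content and length (those lost included Bag6, Dnajc19, Hspa4, Hspb11, Hspbp1, Pfdn4 and Ubb). Scaled to the sum, 6 of the 20 passed in the same direction. None of the 20 changed sign under these scalings.

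**Figure D5:**
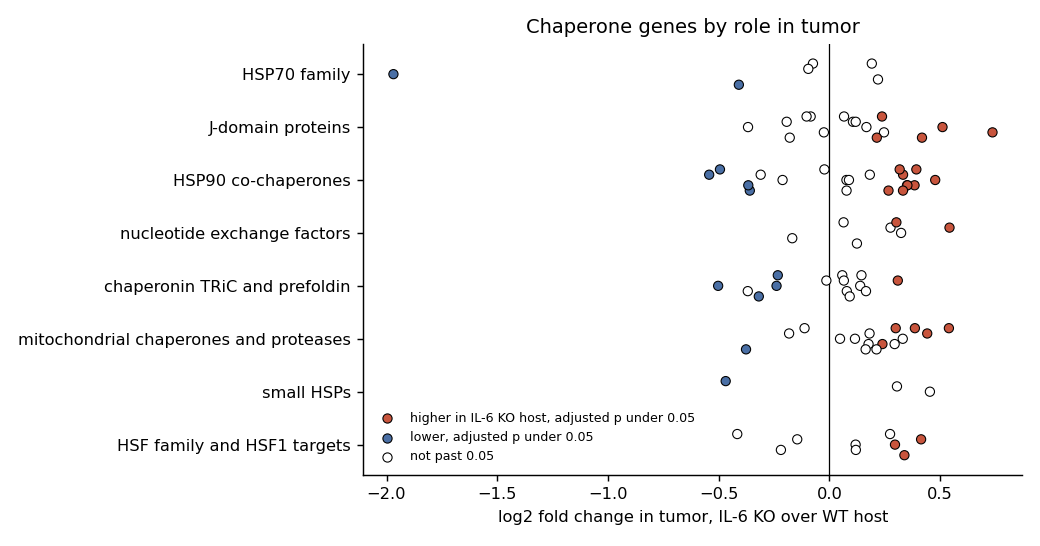
Log2 fold change in tumor (IL-6 KO over WT hosts) of each tested gene of the 8 role lists, red where higher and blue where lower at an adjusted p under 0.05 and white otherwise. The HSP90 co-chaperones hold 13 filled points, 9 red and 4 blue, and the single point furthest to the left is Hspa1l at -1.97.

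In stroma 0 of 90 genes of these lists passed (limma), with a median log2 fold change of -0.14. Scaled to the sum 63 passed, all lower, beside 51.6% of all genes (6284 lower and 8 higher). Dnajc1, a J-domain protein of the endoplasmic reticulum, had the smallest p, with 67.8 ± 22.7 normalized counts in WT and 303 ± 74.2 in IL-6 KO stroma (SD, n = 4 each), no overlap and a log2 fold change of 2.19 (adjusted p = 0.297, limma). Tcp1 had a log2 fold change of 1.36 (adjusted p = 0.440, limma) in stroma, where its IL-6 KO libraries ranged from 242 to 1321. In the remaining lists the smallest p belonged to Ier5 (0.82), Fkbp8 (0.67), Bag1 (-0.66), Dnajc19 (-1.61), Hspa12a (1.79) and Hspb6 (-0.04), with the log2 fold change in parentheses and adjusted p (limma) from 0.440 to 0.994.

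Genes whose libraries deviated most like those of a chaperone are given as a description over 8 libraries, which share their library preparation and size factors. In tumor, Hspe1 was the fourth closest of 11238 genes to Hspd1 (Pearson's r of deviations from the genotype means 0.94), after Sdhaf4 (0.98), Kif20b (0.97) and Mrps14 (0.94) and before Tmed1 (0.94). The genes closest to Hsph1 in tumor were Zbtb11os1 (0.99), Rnu3b1 (0.97), Vps51 (0.97), Dcaf4 (0.96) and St13 (0.96). In stroma, where 8077 genes were compared, those closest to Hspa1a were Pstpip1 (0.99), Brms1 (0.98), Kif21b (0.98), Plcb2 (0.98) and Gm10222 (0.98), and the zeros of Hspa1a in 2 libraries carry these values. Those closest to Hsph1 there were Dsp (0.98), Lrrc41 (0.98), Gtf3c2 (0.97), Pkn3 (0.96) and Gm28437 (0.96), and to Hspd1 Commd4 (0.96), Trak1 (0.95), Msl1 (0.94), Sox13 (0.94) and Tob1 (0.93). Of the members themselves, Hspa1a and Hspa1b deviated in opposite directions in stroma (r = -0.86). The zeros of Hspa1a in the same 2 libraries weigh on this value as well. Whether reads of one gene were counted for the other was not tested.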

How the data were processed

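RNA of mCherry+ (tumor) and mCherry- (stroma) marrow cells was extracted with an RNeasy kit and made into directional libraries after rRNA depletion. The authors aligned single reads of 75 bases to mm10, quantified transcripts with salmon 1.3.0 and normalized the estimated counts with DESeq2 1.28.1. The deposited values are 1 table of normalized counts for each compartment, a scaled signal that is not in whole reads. The authors' DESeq2 results (means, log2 fold changes and p-values) were not used. Library depth is unknown from normalized values, so counting intervals were not given.

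Groups followed the labels. The samples were compared within each table by limma 3.58.1 in R 4.3.3 on log2(normalized count + 1), on genes with a mean over 10, two-sided with a variance trend, adjusted by Benjamini-Hochberg over all genes with a threshold of 0.05, with genotype as the only term. The interaction with compartment was fitted over both tables on shared genes with 1 variance weight per compartment. A fold change on this scale understates the change of low genes. Script steps were tested on simulated data. The 10 genes and the role lists were chosen with earlier results of these data known, and other genes were named by 3 rules: up to 3 genes per role list and table with the smallest p among those past the threshold (else the smallest p), the 5 genes closest to Hspa1a, Hsph1 and Hspd1 among those with a mean over 50, and copies with at least 97% identity over at least 150 bases. Results for some genes that these rules give are not reported here. Other co-chaperones named without values, the marker genes and Rn7s1 fall outside these rules and were chosen after their values were seen. Annotation, lengths and copies used GENCODE vM21 (GRCm38) with BLAST 2.17.0 and Biopython 1.88. Lengths were those of the longest protein-coding transcript. Python 3.11.15, pandas 2.3.3 and matplotlib 3.10.9 were used for tables and figures. Alternatives were pseudocounts of 0.5 and 5, no filter or a mean over 50, quantile normalization, median centring, array weights, a block for the replicate number, leaving out 1 library at a time, and members summed with their copies. The correction for GC content and transcript length, in which the trend of each library with both was removed, and scaling to the sum of all normalized counts were added after the values were seen.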

Additional observations from a re-analysis of the deposited data

Results flagged for a closer look

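In groups of 4 libraries, a value was singled out when its gap to the nearest other library exceeded, as a share of the range of the group, the 95% critical value of Dixon. This was so for 3 of the 38 groups examined, and about 1 in 20 groups would be singled out by chance. All 3 were in IL-6 KO stroma. Hsp90aa1 was at 2911 in library 3, with a gap of 0.891 of the range, while the other libraries were between 511 and 772. Hsph1 was at 867 in library 1 (0.935 of the range), with the others between 114 and 162, and Hspe1 at 66.8 in the same library (0.897 of the range), with the others between 25.3 and 29.5.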

How the results depend on the processing

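Of 733 recomputed values, 689 were graded the same as reported, 23 weaker, 15 stronger and 6 reversed. A fitted change was graded by its side of the threshold, and as reversed where its sign changed and either fit passed. A count of genes was graded by its distance from the count reported, so counts graded the same can differ from it. All 6 reversals came from scaling to the sum of all normalized counts, which moved the median log2 fold change of all genes to -0.28 in tumor and -1.68 in stroma. The reversed values were -0.054 for Hsp90ab1 and -0.26 for Hspd1 in tumor, -1.31 for Hsp90aa1, -1.51 for Hspd1 and -1.68 for Hsf1 in stroma, and 1.25 for Hspd1 in the interaction. Under that scaling 4 members passed in tumor, 6 in stroma and 4 in the interaction, and 22 and 63 genes of the role lists in tumor and stroma. Of all genes, 25.7% passed in tumor and 51.6% in stroma. The number of chaperone members passing in tumor, 1, was 0 under quantile normalization, 0 after correction for GC content and transcript length and 0 with the replicate number as a block (Hsp90ab1 limma adjusted p = 0.0819), and 2 with array weights, where Dnajb1 also passed (log2 fold change 0.20, limma adjusted p = 0.0387). Without single libraries it was 0 to 1, and the call held without WT library 1 and without IL-6 KO library 2. The cause was not tested, except that leaving out a library leaves fewer samples. Genes of the role lists passing in tumor numbered 37, and from 17 to 42 without single libraries, 28 with the replicate block. Over all genes tested in tumor, 1542 were higher and 1328 lower in IL-6 KO hosts, and 1511 and 630 after the correction for GC content and transcript length. The counts of 0 members and 0 role list genes in stroma and of 0 members in the interaction held under the other alternatives run. Libraries with the same number did not deviate together (correlations of deviations from -0.06 to 0.13). Different cells of 1 mouse need not deviate alike, so this cannot decide whether the numbers pair the samples. The interaction as reported was fitted without pairing. Summing Hspa1a with Hspa1b could not be done in tumor. Unknown depth and a possible split of reads between near-identical copies limit Hspa1a, Hspa1b, Hspa8 and Hsp90aa1, most of all in stroma.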
